A study of Homo sapiens with 36 samples.

Results

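PAR-CLIP clusters in 3′ UTRs, stretches of crosslinked RNA called from sequencing reads, were examined. A cluster was a member when its midpoint lay, on the same strand, in the 3′ UTR of a protein-coding gene, each gene being represented by its GENCODE 44 isoform of largest summed exon length (GRCh38). There were 38094 such clusters among the 278185 clusters of the 18 deposited lists (13.7%), and they fell in 3990 of the 16794 represented 3′ UTRs. The 6 lists of SCAF4 and SCAF8 pull-outs held 22834 of them, the 9 input lists 13158 and the 3 control pull-outs 2102. The 6 lists are called the tagged IP lists below, and the 6 inputs of the same lines the tagged inputs.

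SCAF4 and SCAF8 are nuclear proteins that bind RNA and the C-terminal domain of RNA polymerase II, and the study mapped where they contact RNA. All cells were HEK293 Flp-In T-REx, a line derived from human embryonic kidney, without any CRISPR knock-out per the labels, and they either expressed FLAG-SCAF4 or FLAG-SCAF8 from a doxycycline-inducible transgene (100 ng/mL overnight in the labels) or were the parental line without a tagged protein, for which the labels give no doxycycline, although the methods name it, at a higher dose, for parental and tagged cells alike. Cells received 100 µM 4-thiouridine overnight and 500 µM for 2 h, were irradiated at 365 nm with 2000 J/m2, RNA was trimmed with RNase I (30 U/mL, 3 min), and FLAG IPs were sequenced beside inputs of the same extracts, with 3 replicates of each (SCAF4 IP, SCAF8 IP, control IP and their inputs, 18 lists in all). Each list combines the soluble and the chromatin fraction, so the members cannot be divided between nascent and released RNA, and the tagged proteins were induced beside the cells' own SCAF4 and SCAF8.

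The 3′ UTR is the part of an mRNA between the stop codon and the poly(A) tail. It is not translated, and it holds much of the sequence through which an mRNA's stability, localisation and translation are set, among it microRNA sites, AU-rich elements and sites of Pumilio proteins. Its end is made by cleavage and polyadenylation, which depend on a signal, most often AATAAA, a short way upstream of the cut, and many genes hold several such ends in one 3′ UTR. In PAR-CLIP, 4-thiouridine in RNA is crosslinked to bound protein and read as a T-to-C change, and an input, which is taken before the pull-out, shows which RNA gives clusters without selection of the tagged protein.

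The 3 sets of 30 nt stretches below are examples picked by the lists that held a region and by its length, not typical members. Each was taken from the middle of the stretch that clusters of most lists covered, from the GRCh38 genome in transcript orientation, and capitals mark matches to the short motifs (CGG or CGA, the pentamers CCAGC and CCAGG as well as GCAGC and GCAGG, and the tetramers CTCC and CACC), which were searched later around all members. The first set comes from 5 regions found in all 6 tagged IP lists and in no input or control IP list. Of the 10 longest such regions, 1 a gene, these 5 lay in the 3′ UTR of the gene's reference transcript (MANE Select). The other 5 lay in its coding sequence and are named below without their sequences.
DLST, chr14:74903379-74903408 (+): gtaggaaacCACCctgagggtgttagtacc
HOXB6, chr17:48596016-48596045 (-): caatggtagattcgctgtcccctcagCGGg
POLR2E, chr19:1088551-1088580 (-): tcctggggtgaggcttcctgtggcCCAGCc
RRP12, chr10:97356959-97356988 (-): ctcaggatgacttggaactagggcttggct
UBN1, chr16:4881350-4881379 (+): tcagagagactaggacagttactgcagagc

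The second set comes from 7 of the 8 longest regions that all 18 lists held, input and control IP included, and shows RNA that was clustered with or without a tagged protein.
TMBIM6, chr12:49763070-49763099 (+): tagtttggagtttggcttcatcttcctggg
TOMM20, chr1:235111583-235111612 (-): taaaggttttgattgatcctttctttccat
AKT2, chr19:40232746-40232775 (-): ggactgcgtgtgtCGGCGGgacGCAGGcac
BIRC5, chr17:78223714-78223743 (+): gaaagtggCACCagaggtgcttctgcctgt
HNRNPA1, chr12:54284501-54284530 (+): agtcttaatatgtttagattaacaacttta
ARF1, chr1:228097974-228098003 (+): actggactggctgtccaatcagCTCCGGaa
PPP2CA, chr5:134197143-134197172 (-): ttttttccccttcctgtaagaCGAtgtgac

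The third set comes from regions held by all lists of one protein's IP and by no other list, 3 for SCAF4 (MAP3K4, KCND1, JAG2) and 3 for SCAF8 (TNFRSF13C, EPN1, MIDN).
MAP3K4, chr6:161116949-161116978 (+): gcagtataagcctttttaaccttccaagac
KCND1, chrX:48962165-48962194 (-): tcCTCCctctggctgggatatggagctttg
JAG2, chr14:105142204-105142233 (-): gtCGGtgggactcgtggctgtcaatgggac
TNFRSF13C, chr22:41923280-41923309 (-): gcatctttggaagggagcactggactagga
EPN1, chr19:55704923-55704952 (+): agcatctctggctgaatgctgttctcatcc
MIDN, chr19:1258149-1258178 (+): ttaattttctgactgagccaatagtggttg

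The lists differed widely in length, and read depth is unknown because they hold no reads. The SCAF4 IP lists held 18991 to 54404 clusters, the SCAF8 IP lists 18287 to 41502, the control IP lists 1621 to 9638 and the 9 inputs 4567 to 12493, so shares and positions were compared, not numbers. Shares and positions can still depend on list length. Every tagged IP list was longer than every tagged input (4793 to 11715 clusters). Length and pull-out cannot be told apart in that contrast. No 2 lists shared over 0.740% of their exact cluster positions. The median member was 159 nt long. A limit of the rule is that the longest isoform of 1156 genes was of the nonsense-mediated decay type, whose early stop codon turns coding exons into 3′ UTR, and 13.7% of the members lay in the coding sequence of the gene's MANE Select transcript (5214 clusters). This share was 17.7% ± 4.38 (SD, n = 6) in the tagged IP lists, 15.1% ± 3.90 (n = 3) in the control IP lists and 7.74% ± 1.82 (n = 6) in the tagged inputs. SCAF4 IP lists had 19.2%, 19.97% and 24.2% there, and SCAF8 IP lists 12.2%, 17.1% and 13.8%. The share of members that lay in the bodies of several genes was 15.1%.

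The first question was how much of each list lay in 3′ UTRs. Pull-out of SCAF4 or SCAF8 gave a smaller share of 3′ UTR clusters than the matching input, and the lists did not overlap. In SCAF4 IP the 3 lists held 12.6%, 10.6% and 9.42% of their clusters in 3′ UTRs, and in SCAF4 input 20.3%, 16.5% and 15.5%. In SCAF8 IP the shares were 15.5%, 12.0% and 12.9%, and in SCAF8 input 20.7%, 19.8% and 21.3%. Every tagged IP list was thus below every tagged input, although the highest of the first (15.46%) and the lowest of the second (15.50%) nearly met. The mean was 12.2% ± 2.07 (SD, n = 6) against 19.0% ± 2.42 (n = 6), a difference of −6.84 percentage points (two-sided exact permutation test over 924 splits, p = 0.00216, the smallest these lists allow, adjusted p = 0.0113 over 47 tests). The share was lower in 6 of 6 IP lists than in the input of the same line and replicate number. Each of these IP lists was also longer than every tagged input, and the part of list length was not tested.

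The control IP lists gave 17.0%, 14.6% and 7.59%, and the control inputs 16.9%, 13.3% and 12.0%. These groups overlapped, and their means differed by −1.01 points (exact permutation, p = 0.9). The last of the control IP lists was also the shortest, with 123 members and a 95% exact binomial interval of 6.35% to 8.99%, which covers counting error only, as do all such intervals here. The tagged IP lists and the control IP lists differed by −0.887 points (exact permutation, p = 0.714). A direct test of the IP-minus-input difference, chosen after the values were seen, set the 6 pairs of the tagged lines (−6.84 ± 1.28) against the 3 pairs of the parental line (−1.01 ± 3.03) and gave −5.83 points at p = 0.0119, the smallest that 84 splits allow, and an adjusted p of 0.179 over 15 measures (exact permutation). Replicate 1, which was sequenced with longer reads, had the highest share in 5 of 6 groups, and the part of read length in this was not tested.

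**Figure D1:**
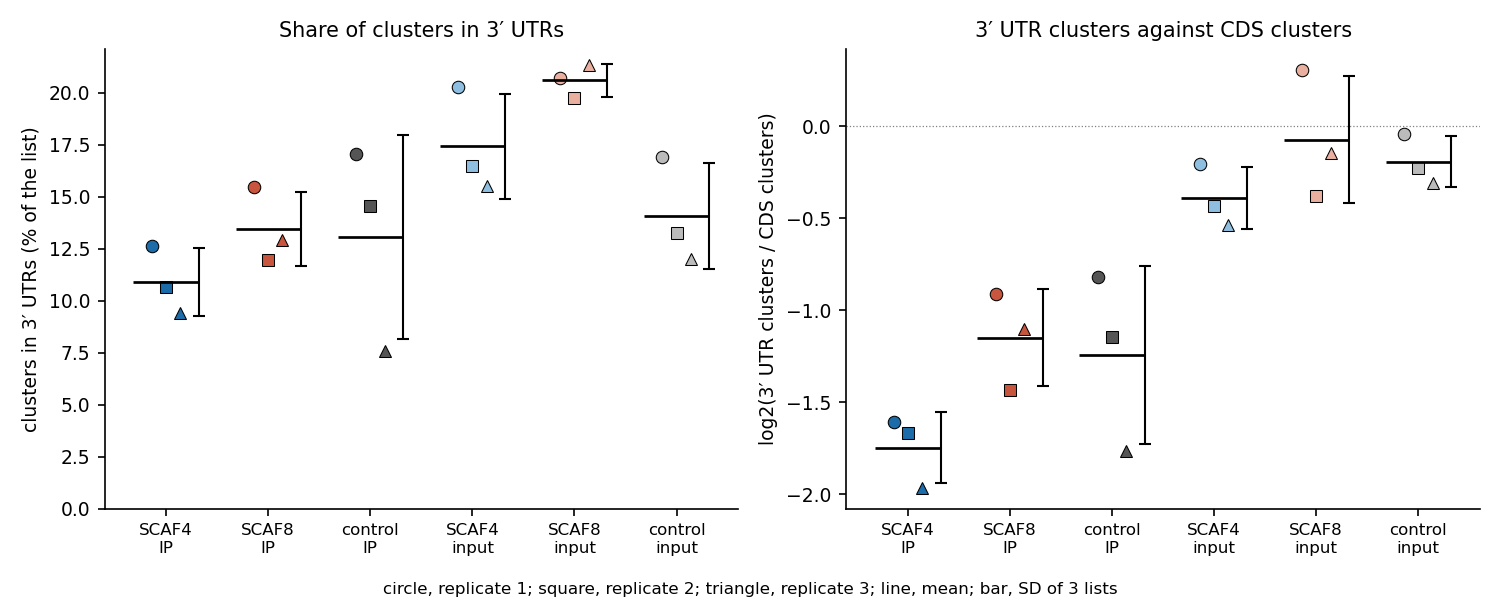
Left, clusters in 3′ UTRs as a percentage of each list, and right, log2 ratio of clusters in 3′ UTRs to clusters in coding sequence (CDS) of the same isoforms, for 18 lists in 6 groups, with the mean (line) and SD (bar) of 3 lists. On the left the SCAF4 and SCAF8 IP lists lie below their inputs and the control IP lists span both, and on the right all 9 IP lists, control IP included, lie below all 9 inputs.

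Set against coding sequence, the members were scarcer in every pull-out, with or without a tagged protein. The log2 ratio of 3′ UTR to CDS clusters was −1.61, −1.67 and −1.97 in SCAF4 IP, −0.91, −1.43 and −1.11 in SCAF8 IP, and −0.82, −1.15 and −1.77 in control IP. It was −0.21, −0.43 and −0.54 in SCAF4 input, 0.30, −0.38 and −0.14 in SCAF8 input, and −0.04, −0.23 and −0.31 in control input. No IP list reached the level of any input. For the tagged lines the difference was −1.22 on the log2 scale (exact permutation, p = 0.00216, adjusted p = 0.0113), and for the parental line it was −1.05 (3 against 3, exact permutation, p = 0.1, the smallest possible). The difference between these shifts was −0.16 (exact permutation over pairs, p = 0.369, adjusted p = 0.536). Clusters in CDS made up 33.1% ± 4.20 of the tagged IP lists (n = 6), 29.4% ± 3.25 of the control IP lists (n = 3), 22.4% ± 3.00 of the tagged inputs (n = 6) and 15.9% ± 1.31 of the control inputs (n = 3).

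The 2 proteins differed in this ratio without overlap between their lists. SCAF4 IP had a mean log2 ratio of −1.75 ± 0.19 and SCAF8 IP of −1.15 ± 0.26 (n = 3 each), a difference of −0.60 (exact permutation, p = 0.1, the smallest possible, adjusted p = 0.188). The inputs of the 2 lines differed in the same direction, at −0.39 ± 0.17 and −0.07 ± 0.35, and the difference left after subtracting each input was −0.28 (exact permutation, p = 0.1). The share of clusters in 3′ UTRs was 2.55 points lower in SCAF4 IP than in SCAF8 IP (exact permutation, p = 0.2), with overlapping lists. With 3 lists against 3, no difference between the proteins could reach p of 0.05.

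Along the 3′ UTR, members gathered after the stop codon in every group. In UTRs of 1000 nt or more, to which this paragraph refers, the first of 10 equal parts held 20.3% ± 1.67 of the members in SCAF4 IP, 18.7% ± 0.164 in SCAF8 IP, 17.3% ± 2.13 in control IP (n = 3 each) and 17.2% ± 0.935 in all inputs (n = 9). The last part held 5.28% ± 0.133, 5.67% ± 0.398, 4.39% ± 0.908 and 5.74% ± 0.727 in the same order. An even spread would put 10% in each part, so the start was denser and the end sparser than that in all 4. The first 200 nt held 13.96% ± 1.29 of the members in the tagged IP lists, where members spread evenly over their own UTRs would give 7.23%, and the last 200 nt held 3.95% ± 0.217 (n = 6). The inputs of these lines held 12.8% ± 1.26 and 4.49% ± 0.524 (n = 6), against 7.59% for an even spread. Neither differed from the IP lists past the threshold after adjustment (exact permutation, p = 0.149 and 0.0455, adjusted p = 0.26 and 0.164), and with the replicate number as a block the last 200 nt gave p = 0.156 (exact permutation).

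**Figure D2:**
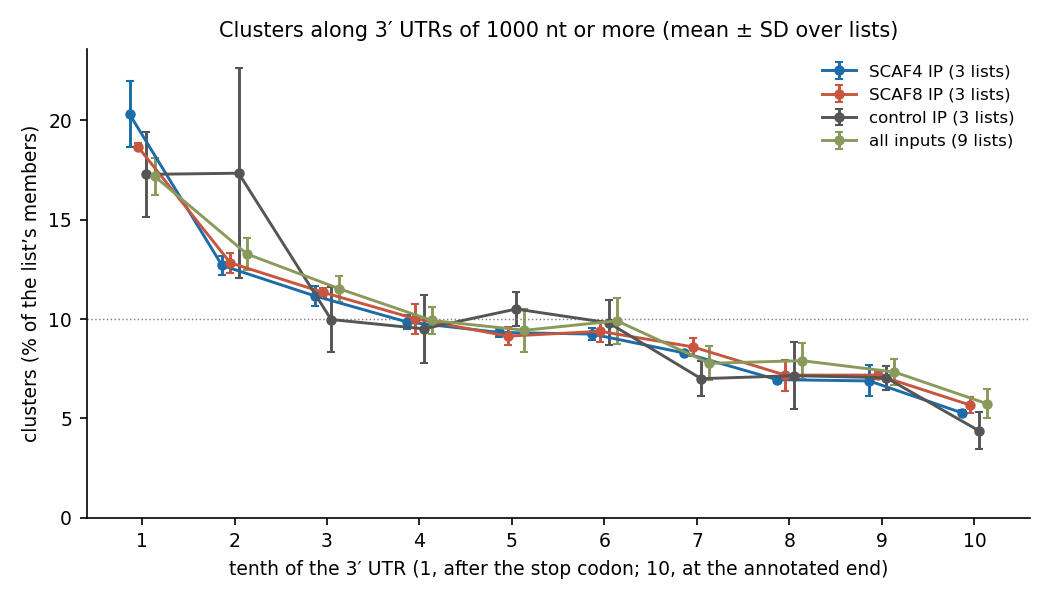
Share of a list's members in each of 10 equal parts of 3′ UTRs of 1000 nt or more, from the stop codon (1) to the annotated end (10), mean and SD over lists. All 4 groups fall, from a mean of 17.2% to 20.3% in the first part to 4.39% to 5.74% in the last, and the dotted line marks an even spread.

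The mean relative position, 0 at the stop codon and 1 at the annotated end, was 0.384, 0.401 and 0.403 in SCAF4 IP, 0.410, 0.404 and 0.412 in SCAF8 IP and 0.413, 0.398 and 0.368 in control IP. In the inputs of the tagged lines it was 0.406 to 0.420. The IP lists of these lines averaged 0.402 and their inputs 0.415, a difference of −0.0127 of the UTR (exact permutation, p = 0.013, adjusted p = 0.0509), which missed the threshold after adjustment. It was −0.00664 with isoforms of the protein-coding type alone (exact permutation, p = 0.242) and −0.00995 without members in MANE coding sequence (exact permutation, p = 0.0758). The shift in the parental line was −0.0221 (exact permutation, p = 0.2). SCAF4 IP minus SCAF8 IP was −0.0127, closer to the stop codon, without overlap between the lists (exact permutation, p = 0.1, the smallest possible).

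The UTRs that held members were long, whichever list was asked. The median UTR length over members was 2778 to 3036.5 nt in the tagged IP lists and 2282 to 3194 nt in the tagged inputs, against 1413.5 nt over all represented 3′ UTRs. A longer UTR has more room for a cluster, and the part of this was not tested. Tandem ends inside 3′ UTRs were also examined, at 9450 annotated ends of other isoforms in 4238 UTRs. On the log2 scale, members within 200 nt upstream of such an end outnumbered those within 200 nt downstream by 0.17 ± 0.09 in the tagged IP lists and by 0.12 ± 0.12 in their inputs (n = 6 each), a difference of 0.04 (exact permutation, p = 0.465, adjusted p = 0.608). In control IP this ratio was 0.45 ± 0.43 (n = 3), where single lists held as few as 7 members on 1 side.

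The members pulled out differed from input members in base composition. In 100 nt around the midpoint, G+C content was 48.5%, 48.0% and 49.1% in SCAF4 IP, 46.8%, 48.1% and 47.5% in SCAF8 IP and 47.9%, 48.5% and 49.9% in control IP. It was 44.4%, 45.2% and 45.8% in SCAF4 input, 41.7%, 45.0% and 44.4% in SCAF8 input and 42.6%, 45.3% and 45.7% in control input. All 9 IP lists lay above all 9 inputs. Tiles of 100 nt over the same 3990 UTRs had 43.2% G+C. The IP lists of the tagged lines were 3.58 points higher than their inputs (exact permutation, p = 0.00216, adjusted p = 0.0113), and the control IP was 4.22 ± 1.07 points higher than its input over 3 of 3 pairs. These shifts differed by −0.638 points (exact permutation, p = 0.321, adjusted p = 0.536), and the tagged IP lists stood −0.781 points from control IP (exact permutation, p = 0.25). Uridine, the base that can be crosslinked, made up 27.6% ± 1.20 in the tagged IP lists and 30.3% ± 1.04 in their inputs (n = 6 each), a difference of −2.77 points (exact permutation, p = 0.00433, adjusted p = 0.0203), with 35 of 36 pairs of lists in that direction. It was lower in SCAF4 IP, at 26.9%, 26.9% and 25.99%, than in SCAF8 IP, at 29.3%, 27.9% and 28.4%, without overlap (exact permutation, p = 0.1, the smallest possible).

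Sequence elements that mark 3′ UTRs were rarer in members of the tagged IP lists than in members of their inputs. The polyadenylation signal AATAAA was within the 100 nt of 3.72% ± 0.118 of the members in the tagged IP lists and of 4.55% ± 0.272 in their inputs, the AU-rich pentamer ATTTA in 9.59% ± 0.919 and 12.9% ± 1.73, and the Pumilio motif TGTANATA, N being any base, in 1.13% ± 0.209 and 1.75% ± 0.222 (n = 6 each, transcribed strand only). Each of the 3 was lower in every IP list than in every input of these lines (exact permutation, p = 0.00216, adjusted p = 0.0113 each). Tiles of the same UTRs held them at 7.71%, 16.8% and 1.81%. AATAAA was thus below its tile level in IP lists and inputs alike. In control IP they stood at 2.84% ± 1.13, 9.20% ± 0.479 and 1.61% ± 0.771, and in control input at 4.64% ± 0.4, 13.4% ± 0.985 and 1.62% ± 0.402 (n = 3 each). AATAAA and ATTTA were lower in 3 of 3 parental pairs, and the Pumilio motif in 1 of 3.

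Short G+C-rich motifs were also counted, and the part of base composition in their shares was not tested. The study derived their letters from these pull-outs against these inputs, so their shares are given as a description, without p-values. Their tests do count among the 47, and the adjusted p-values of the other measures depend on them. CGG or CGA was found in 56.9% ± 3.39 of the members of tagged IP lists and in 46.9% ± 3.83 of those of their inputs, 1 of the 4 pentamers in 41.3% ± 2.77 and 31.7% ± 3.19, and CTCC or CACC in 49.5% ± 1.99 and 42.9% ± 2.33 (n = 6 each). Tiles held the motifs at 38.2%, 39.2% and 49.2%, so that the last set was at its tile level in the IP lists and below it in the inputs. In control IP the shares were 59.8% ± 5.48, 43.6% ± 8.04 and 50.2% ± 1.59 (n = 3). The shift from input was 10.7, 12.4 and 9.88 points in the parental line and 10.0, 9.68 and 6.56 points in the tagged lines. AKT2 in the second set of sequences shows such motifs in a region that the inputs and the control IP held too.

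**Figure D3:**
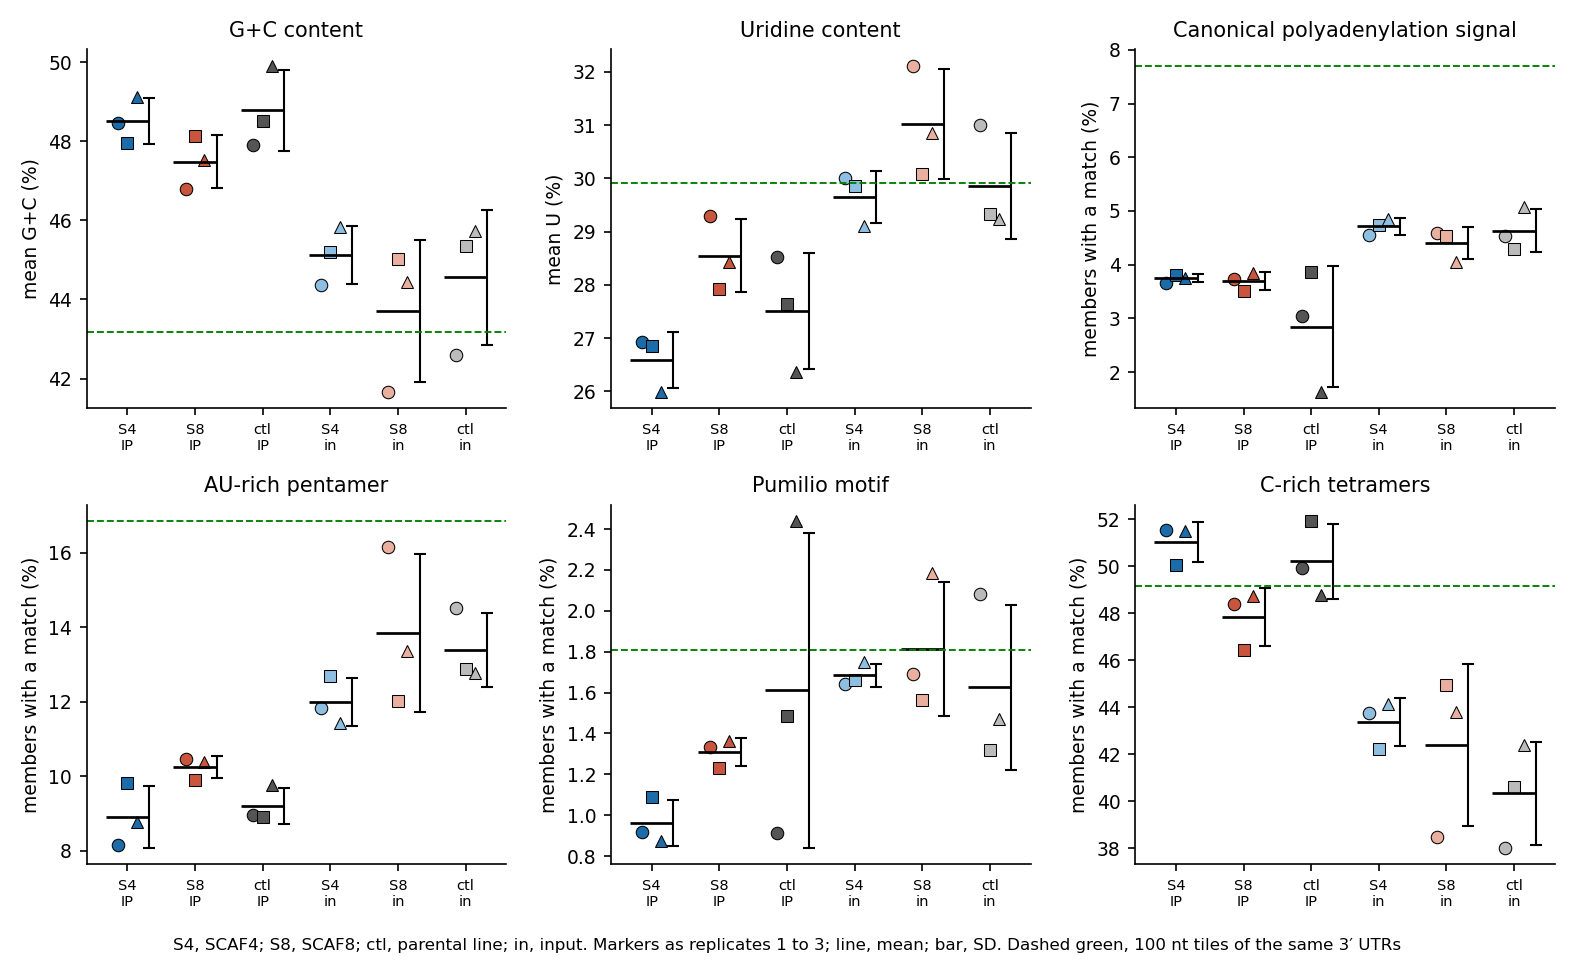
Composition in 100 nt around the midpoint of members, 1 marker a list, with the mean (line) and SD (bar) of 3 lists: mean G+C and uridine content, and the share of members with the polyadenylation signal, the AU-rich pentamer, the Pumilio motif or the C-rich tetramers; dashed lines give 100 nt tiles of the same 3′ UTRs. IP lists have more G+C and C-rich tetramers and fewer AU-rich pentamers than every input, uridine is lower on average with some overlap, and the control IP lists lie with the SCAF4 and SCAF8 IP lists in G+C.

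What the rest of this account turns on is which sites recurred. Clusters of all 18 lists were joined into regions on each strand wherever they shared 1 nt or more, which gave 82455 regions in all, of which 9186 had their midpoint in a 3′ UTR. Found in 2 or more tagged IP lists, at most 1 of 9 inputs and no control IP list were 2417 of these, or 26.3% of the 3′ UTR regions, against 33.5% of all regions and 45.7% of CDS regions. In at least 5 of 9 inputs lay 793, or 8.63%, against 5.02% of all regions and 3.86% of CDS regions. Input lists alone held 832 regions (9.06%, against 6.88% of all and 0.81% of CDS regions). A control IP list held 1504 (16.4%, against 11.3% of all and 12.6% of CDS regions). Tagged IP lists alone held 4630 (50.4%, against 65.1% of all and 74.3% of CDS regions). By each of these counts the 3′ UTR regions stood closer to the input or to the control IP than regions at large. These are shares of 1 merged set, with no test.

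Recurrence in pull-outs went with presence in inputs. Of the 3561 3′ UTR regions in 1 of the 6 IP lists, 18.7% were in an input too, and this share was 36.4% with 2 lists, 51.8% with 3, 65.8% with 4, 77.9% with 5 and 92.7% with all 6 lists. In all 6 lists lay 790 regions (8.60%, against 7.38% of all and 10.6% of CDS regions), and 595 of these also lay in a control IP list. The median length of the regions rose from 145 nt with 1 list to 398 nt with 6. A longer region has more room to meet a cluster of another list, and the part of region length was not tested.

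**Figure D4:**
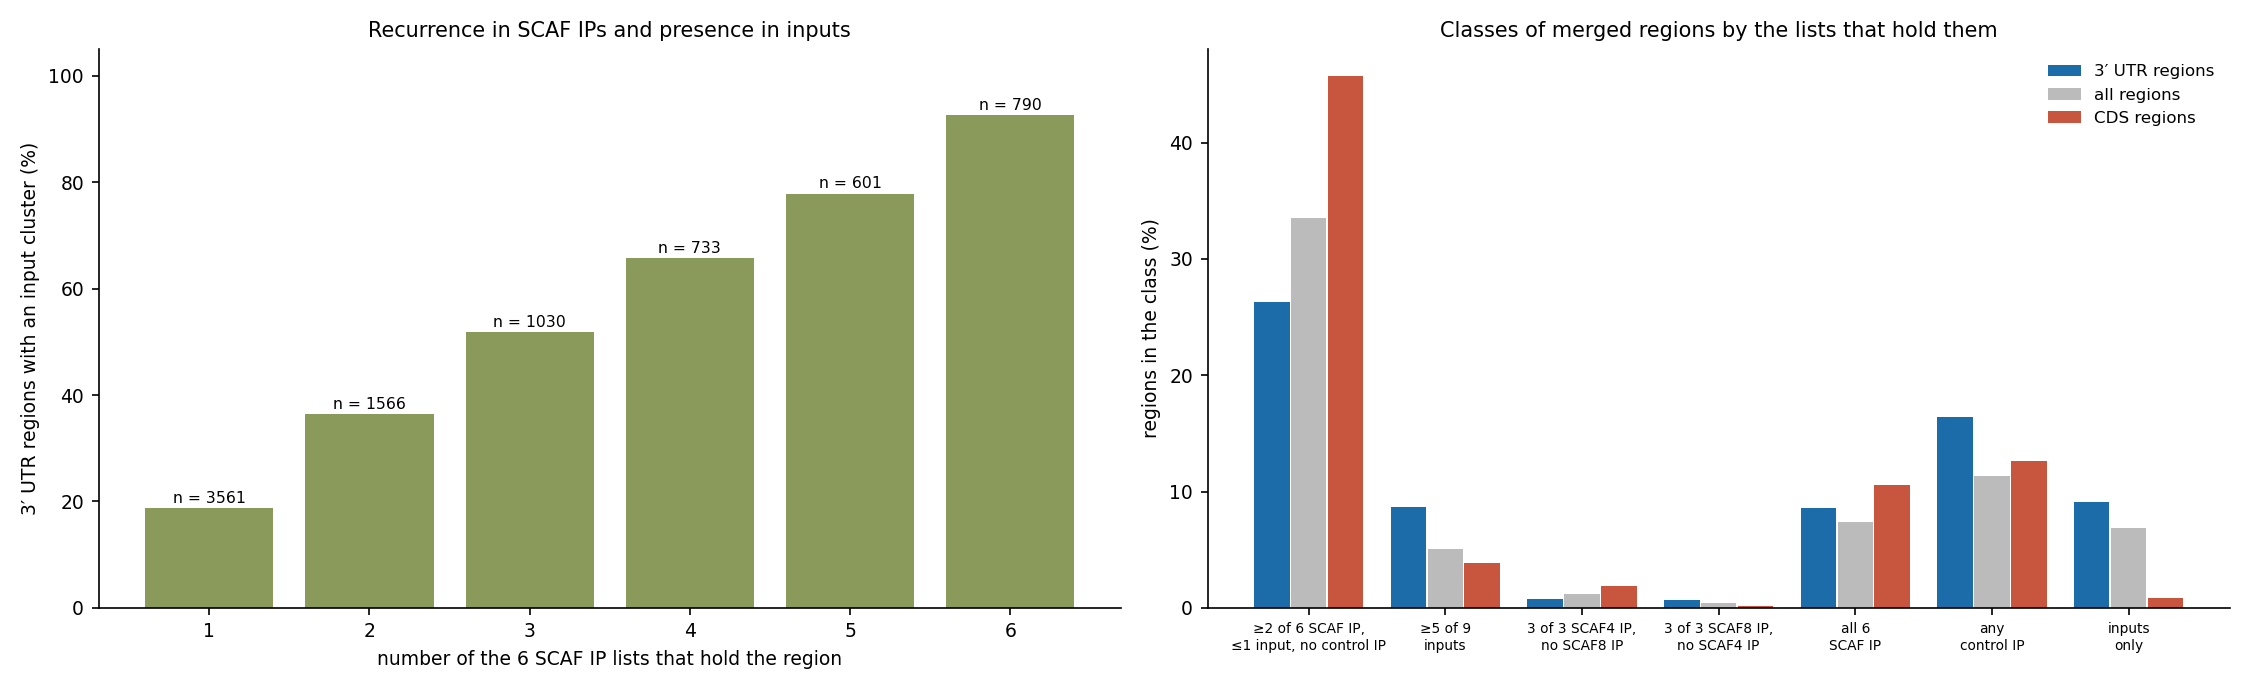
Left, share of 3′ UTR regions that also hold a cluster of an input, by the number of the 6 tagged IP lists with the region (n, regions); right, share of 3′ UTR, all and CDS regions in 7 classes of lists. The share with an input cluster goes from 18.7% with 1 IP list to 92.7% with 6, and 3′ UTR regions have a lower share than CDS regions in the first class (26.3% and 45.7%) and a higher share in the input classes.

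Single members were less often shared with inputs in the tagged lines than in control IP. Clusters of inputs, the own input of the same number left out, overlapped 68.4%, 50.9% and 60.3% of the members in SCAF4 IP, 63.3%, 70.0% and 53.6% in SCAF8 IP and 81.2%, 96.7% and 97.6% in control IP. The groups did not overlap. The difference was −30.7 points (exact permutation, p = 0.0119, the smallest that 6 against 3 allows, adjusted p = 0.0509), and the 3 control IP lists were also the shortest of the 9 IP lists. No other of the 16 measures passed p of 0.05 between these lists and control IP.

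Regions found in inputs and regions found in pull-outs differed in composition, by a description of classes that the lists themselves define. The 4630 regions of tagged IP lists alone had 49.1% G+C and 26.4% uridine, a median length of 155 nt, and 22.3% of them lay in MANE coding sequence. The 832 regions of inputs alone had 39.2% G+C, 32.5% uridine, a median length of 142 nt and 0.841% in MANE coding sequence. Among regions in a MANE Select 3′ UTR the contrast was 48.4% against 39.1% G+C (3328 and 791 regions).

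The 10 genes named here held the longest 3′ UTR regions in all 6 IP lists and in no input or control IP list. They were DLST, a subunit of the 2-oxoglutarate dehydrogenase complex, HOXB6, a homeobox transcription factor, NUP85 of the nuclear pore, POLE, the catalytic subunit of DNA polymerase epsilon, POLR2E, a subunit shared by the nuclear RNA polymerases, RRP12, a ribosome biogenesis factor, RAD54L, which acts in homologous recombination, ESPL1, the protease separase, UBN1, a subunit of the HIRA histone chaperone complex, and SEC31B of the COPII coat. Those of NUP85, POLE, RAD54L, ESPL1 and SEC31B lay in the coding sequence of the MANE Select transcript, and the other 5 in its 3′ UTR. The DLST region (chr14:74902862-74903573, plus strand) spanned 712 nt, with its middle 887 nt after the stop codon of a UTR of 1413 nt. Its clusters covered 139, 549 and 278 nt in the SCAF4 IP lists and 231, 478 and 583 nt in the SCAF8 IP lists. The HOXB6 region (chr17:48595652-48596291, minus strand) was 640 nt long, with its middle 440 nt into a UTR of 662 nt, so that it ran past the annotated end, and was covered for 417, 306 and 600 nt in SCAF4 IP and 508, 306 and 373 nt in SCAF8 IP. Both were broad regions, of which all 6 lists shared 139 nt in DLST and 137 nt in HOXB6.

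The RRP12 region (chr10:97356702-97357159, minus strand) was 458 nt long, more than its UTR of 393 nt, and reached from the last coding bases to the end of the UTR. Its clusters covered 180, 314 and 114 nt in SCAF4 IP and 92, 137 and 306 nt in SCAF8 IP. The POLR2E region (chr19:1088174-1088715, minus strand) had its middle 289 nt after the stop codon and was covered for 307, 206 and 231 nt in SCAF4 IP and 178, 250 and 406 nt in SCAF8 IP, and no stretch of it was covered by more than 5 of the 6 lists. In UBN1 (chr16:4881243-4881616, plus strand) all 6 lists shared 110 nt, with 140, 248 and 210 nt covered in SCAF4 IP and 211, 120 and 374 nt in SCAF8 IP. With the choice restricted, after the values were seen, to MANE Select 3′ UTRs, the next were ZNF607, TRRAP, XPO6, PKN3 and SULT1A3. Of these, TRRAP, a scaffold of histone acetyltransferase complexes, had clusters of 169 to 261 nt in the 6 lists and XPO6, the export receptor of actin, clusters of 121 to 250 nt. SULT1A3 has a near-identical copy, SULT1A4, so its place is uncertain. The 30 nt of TRRAP and of UBN1 held none of the short motifs, and those of XPO6 held CCAGC.

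At the other end stood regions present in all 9 inputs, all 3 control IP lists and all 6 tagged IP lists. Among the 8 longest were those in TMBIM6, an endoplasmic reticulum membrane protein, TOMM20, a mitochondrial import receptor, AKT2, a kinase of insulin signalling, BIRC5 (survivin), HNRNPA1, a splicing regulator, ARF1, a GTPase of vesicle traffic, and PPP2CA, a catalytic subunit of a protein phosphatase. All 8 lay in MANE Select 3′ UTRs. The TMBIM6 region (chr12:49762811-49764708, plus strand) was 1898 nt long and reached across the stop codon into a UTR of 2038 nt, with 1125 to 1541 nt covered in the 6 tagged IP lists and 1165 to 1709 nt in the 9 inputs. In control IP it was covered for 1565, 483 and 156 nt. The TOMM20 region (chr1:235110291-235112168, minus strand) was 1878 nt long and covered for 1092 to 1578 nt in the tagged IP lists, 1038 to 1763 nt in the inputs and 1578, 141 and 280 nt in control IP. In both, pull-outs and inputs overlapped in covered length. AKT2 (chr19:40231885-40233717, minus strand) was covered for 898, 1194 and 483 nt in SCAF4 IP and 1305, 1678 and 1237 nt in SCAF8 IP, against 218 to 551 nt in the inputs and 601, 437 and 129 nt in control IP. Only the lowest of the tagged IP lists overlapped the inputs there, control IP lay above, within and below them, and the tagged IP lists were also the longest.

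Regions held by all lists of 1 protein and none of the other were few. In 3 of 3 SCAF4 IP lists and no SCAF8 IP list lay 66 regions (0.718%, against 1.18% of all regions and 1.88% of CDS regions), and in 3 of 3 SCAF8 IP lists and no SCAF4 IP list 60 (0.653%, against 0.386% of all and 0.139% of CDS regions). The counts in 3′ UTRs were thus 66 and 60, where CDS regions had 421 of the first kind and 31 of the second. Among those absent from inputs and control IP, the longest for SCAF4 were in MAP3K4, a stress kinase (chr6:161116790-161117210, clusters of 103, 215 and 289 nt), KCND1, a potassium channel (chrX:48961971-48962347, clusters of 277, 182 and 234 nt), and JAG2, a Notch ligand (chr14:105141990-105142315, clusters of 162, 299 and 244 nt). For SCAF8 they were in TNFRSF13C, the receptor of the cytokine BAFF (chr22:41923035-41923531, 482, 180 and 308 nt covered), EPN1, an endocytic adaptor (chr19:55704690-55705052, 363, 153 and 180 nt covered), and MIDN (chr19:1258057-1258387, 314, 178 and 318 nt covered). All 6 lay in MANE Select 3′ UTRs.

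Some 3′ UTRs held many separate regions. A region found in 2 or more tagged IP lists lay in 2499 UTRs, 1501 of them 1 region and 156 of them 5 or more. The most were in POLE (29), OGT (20) and PCNT (20), but 28, 14 and 20 of these lay in MANE coding sequence. Then came CBX5 and EPN1 with 16 each, none in MANE coding sequence. Of the 16 in CBX5, which encodes a heterochromatin protein, 1 was absent from control IP and in at most 1 input, whereas in EPN1 11 were. Counting every region, the 14177 nt UTR of EPN1 held 24 regions in SCAF8 IP, 6 in SCAF4 IP, 3 in control IP and 2, 8 and 4 in the SCAF4, SCAF8 and control inputs. CBX5 held 19, 9 and 10 regions in SCAF8, SCAF4 and control IP and 11 to 15 in the inputs. CBX5 was thus covered in all kinds of list, and EPN1 mostly in SCAF8 IP.

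Among MANE Select 3′ UTRs, chosen after the values were seen, AGO2 (12), SMC1A, ZBED6 and ZKSCAN1 (11 each) and PANK2 and SERBP1 (9 each) followed. AGO2 is the microRNA effector, SMC1A a cohesin subunit and PANK2 an enzyme of coenzyme A synthesis. In ZBED6 8 of 11 regions were absent from control IP and in at most 1 input, and in PANK2 7 of 9. In SMC1A this held for 1 of 11, and in SERBP1, which binds mRNA, for 0 of 9. ZBED6 overlaps another gene on the same strand, ZC3H11A, so its clusters cannot be assigned to ZBED6 alone.

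At the level of whole 3′ UTRs, 1800 held a cluster in at least 2 of 3 SCAF4 IP lists and 1876 in at least 2 of 3 SCAF8 IP lists (10.7% and 11.2% of all represented UTRs). They shared 1377, which was 76.5% of the first and 73.4% of the second. In SCAF4 input there were 644 UTRs, of which 90.1% were also in the SCAF4 IP set, and in SCAF8 input 1065, of which 88.5% were in the SCAF8 IP set. The control IP had 268 UTRs and the control input 486, with 198 shared (73.9% and 40.7%). Of the 268, 95.5% were in the SCAF4 IP set and 96.3% in the SCAF8 IP set. Most UTRs of a tagged input were thus also in the IP set of the same line, whose lists were longer, while most UTRs of control input were not in the control IP set, whose lists were shorter.

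Gene lists with known 3′ UTR regulation were then read against the shares over all UTRs, which were 10.7%, 11.2% and 1.60% in SCAF4, SCAF8 and control IP and 3.83%, 6.34% and 2.89% in their inputs. Of 13 AU-rich element mRNAs with a 3′ UTR under the rule, 3 counted in SCAF4 IP (23.1%), 2 in SCAF8 IP (15.4%), 2 in control IP (15.4%) and 3, 3 and 2 in SCAF4, SCAF8 and control input (23.1%, 23.1% and 15.4%). JUN, a subunit of the transcription factor AP-1, had clusters in 3, 3 and 2 lists of SCAF4, SCAF8 and control IP and in 3, 2 and 3 lists of the inputs. ELAVL1, which itself binds AU-rich elements, had 3, 3 and 2 lists and 2, 3 and 3 lists. CCND1 had 2 SCAF4 IP lists and no other, and XIAP only 1 SCAF8 input list. JUN and ELAVL1 were thus in inputs and control IP as well as in the tagged pull-outs.

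Of 10 mRNAs known as let-7 targets, 4 counted in SCAF4 IP, 6 in SCAF8 IP, 1 in control IP and 3, 3 and 2 in the inputs, beside 10.7%, 11.2%, 1.60%, 3.83%, 6.34% and 2.89% of all UTRs. CCND2, a cyclin, was in all 18 lists, with 10 regions. LIN28B, an inhibitor of let-7 maturation, was in 2 SCAF4 IP and 3 SCAF8 IP lists, in no control IP list and in 3, 1 and 1 input lists. E2F2, a cell cycle transcription factor, was in 2, 3 and 1 IP lists and in 0, 1 and 0 input lists, with 3 of its 6 regions in at least 2 IP lists, at most 1 input and no control IP. The median UTR of this list was 4087 nt, against 1413.5 nt over all. Longer UTRs have more room for a cluster, and the part of UTR length in these counts was not tested.

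Of 11 mRNAs with known tandem polyadenylation sites, 6 counted in SCAF4 IP (54.5%, against 10.7% of all UTRs) and 6 in SCAF8 IP (54.5%, against 11.2%), 2 in control IP (18.2%, against 1.60%) and 4, 6 and 3 in the inputs (36.4%, 54.5% and 27.3%, against 3.83%, 6.34% and 2.89%). Of 17 cleavage and polyadenylation factors, 6, 7 and 3 counted in SCAF4, SCAF8 and control IP (35.3%, 41.2% and 17.6%) and 5, 7 and 2 in the inputs (29.4%, 41.2% and 11.8%). Both lists were thus above the shares over all UTRs in pull-outs and inputs alike, with median UTRs of 3579 and 2066 nt. CPSF6 and NUDT21, subunits of cleavage factor I that are in both lists, were in all 3 lists of either tagged IP. CPSF6 was in 1 control IP list and 3, 3 and 2 input lists, NUDT21 in 2 control IP lists and 2, 3 and 1 input lists. PAPOLA, the canonical poly(A) polymerase, was in no SCAF4 IP list, 3 SCAF8 IP lists, no control IP list and 1, 3 and 1 input lists. In PAPOLA the SCAF8 line thus held clusters in pull-out and input alike.

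The genes that the study names for changes of polyadenylation site came next. Of 9 with a 3′ UTR under the rule (median 4079 nt), 0 reached 2 of 3 lists in any group, beside 10.7% and 11.2% of all UTRs in SCAF4 and SCAF8 IP, and 4 held a cluster in at least 1 list, beside 3990 of all 16794. DNAJB6 had 1 SCAF4 IP and 1 SCAF8 IP list, AKAP13 and COX10 1 SCAF8 IP list each, and HP1BP3 1 SCAF8 IP, 1 SCAF4 input and 1 control input list. BCL11A, CNTLN, DNAJC12, USP15 and ZC3HAV1 had no 3′ UTR cluster in any list. This says only that none was called, at an unknown depth, in the 3′ UTR of the represented isoform. Last exons of shorter isoforms that lie outside that UTR were not scored. The paper reports a SCAF4 and SCAF8 cluster at the last exon of the short isoform of DNAJC12 and of ZC3HAV1.

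Ribosomal protein mRNAs are abundant in growing cells and histone mRNAs in dividing ones. Of 86 cytoplasmic ribosomal protein genes, 40 had a 3′ UTR under the rule. Of these 40, 18 counted in SCAF4 IP, 21 in SCAF8 IP and 6 in control IP (45%, 52.5% and 15%). Over all UTRs the shares were 10.7%, 11.2% and 1.60%. In the inputs 15, 16 and 10 counted (37.5%, 40% and 25%, against 3.83%, 6.34% and 2.89% of all UTRs). With MANE Select transcripts, 85 had a 3′ UTR, of median length 174 nt. In the IPs 23, 26 and 9 counted (27.1%, 30.6% and 10.6%, against 10.1%, 10.8% and 1.56% of all UTRs). In the inputs 17, 22 and 13 counted (20%, 25.9% and 15.3%, against 4.04%, 6.55% and 3.01% of all UTRs). RPL41 was in all 18 lists with 1 region, whereas RPS19 was in 3 SCAF4 IP, 3 SCAF8 IP and 3 SCAF8 input lists and in no other. Replication-dependent histone mRNAs end in a stem-loop in place of a poly(A) tail, and the UTRs of 67 such genes have a median of 60 nt. Of these 67, 2, 1 and 2 counted in the IPs (2.99%, 1.49% and 2.99%). In the inputs 2, 0 and 3 counted (2.99%, 0% and 4.48%). H4C14, with a UTR of 1218 nt under the rule, had clusters in 3 SCAF4 IP, 3 SCAF8 IP, 2 control IP, 3 SCAF4 input and 3 control input lists. With MANE Select transcripts 0 histone UTRs counted in any IP and 1 in control input (1.47%, against 3.01% of all UTRs). Of 470 ZNF zinc finger genes, 58, 63 and 6 counted in the IPs (12.3%, 13.4% and 1.28%) and 20, 38 and 12 in the inputs (4.26%, 8.09% and 2.55%). The ZNF shares lay near those over all UTRs under the rule.

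Filters modelled on the study's methods were applied last, to ask which 3′ UTR regions they leave. Input overlap was read as overlap with clusters of more than 1 of the 9 input lists. Regions that met a control IP cluster were removed too. The paper's results state that clusters of the untagged control were excluded, although its methods give no such step. The form of these steps may differ from the study's, so the sets are not those of the study. For SCAF4, regions in at least 2 of 3 lists numbered 29539, of which 2999 lay in 3′ UTRs. Removal of regions that met clusters of more than 1 of 9 inputs left 1460 of these, removal of genes with at least 1 input region per 10 kb left 750, and removal of regions that met a control IP cluster left 649 (220 to 894 with a replicate left out, lowest without replicate 2). With a replicate left out, 2 lists were still required, now out of fewer lists. Fewer inputs and control IP lists were then left to remove regions, so these ranges mix both changes with the replicate. The share kept was 21.6% of 3′ UTR regions, 35.7% of all regions and 42.5% of CDS regions. For SCAF8 the numbers were 2978, 1231, 623 and 513 (140 to 443 with a replicate left out, lowest without replicate 3), with 17.2% kept, against 25.8% of all and 30.6% of CDS regions. For the pooled set, with 2 of 6 lists, 4821 regions became 1340 in 945 UTRs (752 to 1682 with a replicate left out, lowest without replicate 3), and 27.8% were kept, against 40.1% of all and 47.6% of CDS regions.

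**Figure D5:**
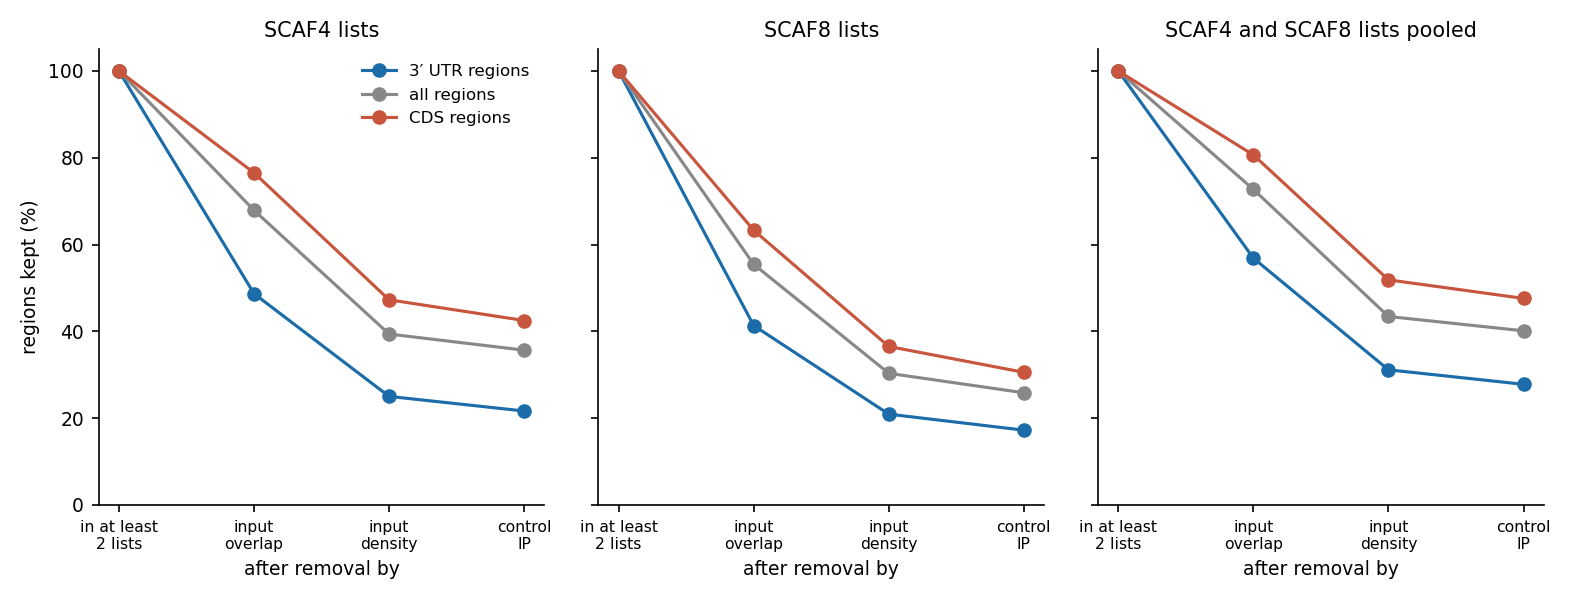
Share of regions kept (percent of those in at least 2 lists) after each removal step for SCAF4, SCAF8 and the pooled set, for 3′ UTR, all and CDS regions. The 3′ UTR line is the lowest in every panel and ends at 21.6%, 17.2% and 27.8%, and for 3′ UTR regions the largest step is the removal by input overlap.

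After the filters, 3′ UTRs held 6.16% of the SCAF4 regions (95% exact binomial interval 5.71% to 6.64%, 649 of 10533), 9.32% of the SCAF8 regions (8.56% to 10.1%, 513 of 5505) and 8.01% of the pooled regions (7.60% to 8.43%, 1340 of 16732). Before them the shares were 10.2%, 13.98% and 11.6%. The rule for counting input regions per gene is not spelled out in the methods, and without that step 1241, 1023 and 2432 regions in 3′ UTRs were left.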

How the data were processed

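The deposited files are lists of PAR-CLIP clusters that give position, strand and a number per cluster. The authors do not explain this deposited score, which runs from 0.501 to 1 and served only for an alternative with higher-scoring clusters. Per the study's methods and processing notes, reads were demultiplexed (bcl2fastq 1.8), trimmed, aligned to GRCh38 (Bowtie2 2.2.9) and deduplicated, both fractions were combined, and PARalyzer called clusters. Starts were taken as 0-based. No cluster end lay beyond its chromosome.

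Midpoints were placed in GENCODE 44 isoforms with Python 3.11.15, pandas 2.3.3, pysam 0.24.0 and bedtools 2.31.1. One value per list entered two-sided exact permutation tests with Benjamini-Hochberg adjustment over 47 tests. The permutation functions were written in Python, and the unblocked one was checked against SciPy 1.17.1, which also gave the binomial intervals. Comparisons within 1 line (9 tests) and of IP-minus-input differences (15 tests) were adjusted apart. P-values measure the spread between lists that the labels give as replicates, and comparisons of SCAF4 or SCAF8 IP with control IP share the 3 control lists. Functions were tested on simulated data. Members, gene lists and motifs were chosen with earlier results of these data known. Regions were named by the number of lists and then length, at most 1 a gene (10 of tagged IP lists alone, 8 of inputs, 3 of each protein), UTRs by their number of regions (5). Of the 8, 1 is not reported here. Alternatives were other isoforms, scores, windows, overlaps, single-gene midpoints, a replicate block and left-out replicates.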

Additional observations from a re-analysis of the deposited data

Results flagged for a closer look

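The IP-minus-input difference in the share of clusters in 3′ UTRs differed between the tagged lines and the parental line. It averaged −6.84 ± 1.28 percentage points over the 6 pairs of SCAF4 and SCAF8 lists, all 6 below 0, and −1.01 ± 3.03 over the 3 parental pairs, of which 1 was below 0. The gap was −5.83 points (exact permutation, p = 0.0119, the smallest that 84 splits allow, adjusted p = 0.179 over 15 measures), so it failed the adjustment. The control IP lists were the shortest of the 9 IP lists, and the part of list length in the gap was not tested.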

How the results depend on the processing

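The 7 measures with p under 0.005 between tagged IP lists and their inputs, the motifs chosen on these lists left out, kept their direction in all 66 recomputations, and 65 kept p under 0.05. The exception was uridine without replicate 2 (p = 0.0571, exact permutation). Leaving out 1 replicate gave −2.86 to −2.67 points for uridine. Over alternatives, the difference in 3′ UTR share was −9.86 to −6.41 points, in log2 ratio −1.38 to −1.17 and in G+C 3.07 to 3.90 points.

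Inputs were taken from the extracts of the IPs, so same-numbered lists of a line may be paired. Over 1503 UTRs, their deviations from the group means correlated at −0.0168 to 0.295, with 4 of 9 pairs over 0.1 and 6 of 9 closest to their own number. With the replicate number as a block, 11 of 15 measures passed p of 0.05 between tagged IP lists and inputs, against 12 without it (3 of each being the motifs chosen on these lists), and the call lost was the last 200 nt (−0.544 points, exact permutation, p = 0.156). Against control IP, 1 of 16 measures passed with or without the block, the overlap with input clusters (−30.7 points, exact permutation, p = 0.037 with the block, the smallest it allows, a fit chosen after seeing the data).

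For position in the UTR, the IP-minus-input difference was −0.0152 to −0.00920 with a replicate left out (p under 0.05 without replicate 2 alone), −0.00664 with isoforms of the protein-coding type, −0.00806 with MANE Select isoforms and, chosen after seeing the data, −0.00995 without members in MANE coding sequence, the last 3 without p under 0.05. For the last 200 nt it was −0.737 to −0.357 points with a replicate left out, −0.0989 and 0.133 with these isoforms, −0.0228 with the higher-scoring clusters (the median of a list or above) and −0.226 with a window of 100 nt. For the first 200 nt it passed p of 0.05 with high-scoring clusters (2.82 points) and with 100 nt (1.34 points). The log2 ratio at internal ends changed sign with MANE Select isoforms (−0.0558), high-scoring clusters (−0.0347) and 100 nt (−0.00497).

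Between tagged and control IP lists, the difference in 3′ UTR share was −3.12 to 0.296 points with a replicate left out in all groups, positive without replicate 1 (0.163) or 2 (0.296), and −3.62 without control IP replicate 3 alone. Position was −0.00604 to 0.0217, negative without replicate 3. The overlap with input clusters was −50.5 to −27.1 points, where 4 against 2 lists cannot go below p = 0.0667 (exact permutation), so 0 measures passed. More measures passed p of 0.05 with isoforms of the protein-coding type (2), MANE Select isoforms (3), high-scoring clusters (6) and midpoints in a single gene (2). Control IP minus control input was −2.16 to 0.705 points with a replicate left out, positive without replicate 3, and 1.14 with high-scoring clusters.

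After the filters, 3′ UTR regions numbered 220 to 894 for SCAF4, 140 to 443 for SCAF8 and 752 to 1682 for the pooled set with a replicate left out, lowest without replicate 2 for SCAF4 and replicate 3 for the others. For these, 2 lists were still required out of fewer lists, and fewer inputs and control IP lists removed regions. With all replicates, the regions left numbered 1241, 1023 and 2432 without the density step, and 157, 90 and 611 with at least 3 lists. High-scoring clusters left 369 for SCAF4 and 289 for SCAF8. Regions of all SCAF4 and no SCAF8 IP lists numbered 40 and 38 with protein-coding and MANE Select isoforms and 91 to 486 with a replicate left out, with 2 lists then counted as all, and those of all SCAF8 and no SCAF4 IP lists 36 with high-scoring clusters and 111 to 620. Regions in at least 5 inputs numbered 190 with high-scoring clusters and 315 to 442 with 6 inputs left, and those of 2 or more tagged IP lists 1399 to 2739, lowest without replicate 3. The lists hold no read counts, so what depth limits cannot be given.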
